A study of Mus musculus with 11 samples.

Results

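The MS4A genes encode small proteins that pass through the membrane several times and sit at the cell surface and in endosomes. They work beside immune receptors: MS4A1 is the B cell antigen CD20, and MS4A2 is a chain of the high-affinity IgE receptor. In brain myeloid cells the family is known mainly through MS4A4A, which lies with the receptor dectin-1 on macrophages and has been linked to release of the soluble form of TREM2. Members were chosen by name as Ms4a4a, Ms4a4b, Ms4a4c, Ms4a6b, Ms4a6c and Ms4a6d. They were found by matching the RefSeq accession on each array probe to a gene symbol. Of these 6 genes, 5 had a matched probe, and all 5 passed the filter on dim probes among 19555 genes tested. Ms4a4a had no matched probe and was not analysed here.

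RNA of C57BL/6N mouse microglia was measured on 11 single-colour arrays. Adult microglia of females aged 12 to 24 weeks gave 2 arrays (A_FACS), and newborn microglia of both sexes at postnatal day 1 to 3 gave 3 arrays (NB_FACS). Both were sorted as CD45 intermediate, CX3CR1 high cells after trypsin digestion in serum, without transcription inhibitors, so that they describe cells after isolation. The other 6 arrays came from newborn mixed glial flasks coated with poly-L-ornithine and fed 20% L-929 conditioned medium, a source of the growth factor M-CSF. Microglia were shaken off between day 18 and 34 and kept for 1 day in DMEM/F12 with 10% fetal bovine serum, either without added cytokines (NB_Control, 3 arrays) or with 100 ng/mL each of 3 human cytokines, TGF-β1, IL-34 and CX3CL1 (NB_Stim, 3 arrays). Age and sex cannot be told apart between A_FACS and NB_FACS, and culture and isolation cannot be told apart between NB_Control and NB_FACS.

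Per array, 66.8% to 80.4% of probes exceeded background by the scanner's own flag. Slide 2 carried the arrays numbered 3 of the newborn groups, and slide 1 carried the remaining 8. Cultured replicates 1 and 2 were close to each other, with a median absolute log2 difference over genes of 0.119 in NB_Control and 0.128 in NB_Stim, against 0.298 to 0.363 between either of them and replicate 3. The study's methods define its n as independent biological replicates, but the labels do not tie single arrays to separate animals or cultures. The p-values measure the spread between these arrays. Of 9 tested microglia markers, 8 or 9 were well above background on every array, and their levels by group are given with those of the other marker lists. Levels below are quantile normalised log2 intensities, means are given ± SD, and differences are log2 differences with limma's moderated two-sided test, adjusted over the 19555 genes and called at an adjusted p under 0.05.

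The probes decide what each value can say, so those on which the results turn are shown first, 5′ to 3′. The Ms4a6b probe and a probe of Ms4a6c hold the same run of 21 bases, printed in capitals. Among all other pairs of probes that read different genes (the 5 measured members, Ms4a4d and Ms4a7), the longest shared run was 11 bases. The Ms4a4b probe opens with 7 uninterrupted GT units and that of Ms4a4d, a further gene of the family, holds 5, also in capitals. The probes of Ms4a6d, of Ms4a7 and the brightest probe of Ms4a6c hold neither.
Ms4a6b: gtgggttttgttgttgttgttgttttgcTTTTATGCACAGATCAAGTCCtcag
Ms4a6c, probe MMXS18934: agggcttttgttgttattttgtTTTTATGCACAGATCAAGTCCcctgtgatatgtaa
Ms4a6c, probe MMXS12383: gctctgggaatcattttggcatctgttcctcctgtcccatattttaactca
Ms4a6d: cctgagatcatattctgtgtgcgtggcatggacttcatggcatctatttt
Ms4a4b: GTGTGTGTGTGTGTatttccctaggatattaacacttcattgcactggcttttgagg
Ms4a4d: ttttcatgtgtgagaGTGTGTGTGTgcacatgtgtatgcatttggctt
Ms4a7, probe MMXS03647: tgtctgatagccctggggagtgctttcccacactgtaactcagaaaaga

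The first comparison asked how the genes differed between cultured and freshly sorted newborn microglia. Ms4a6c and Ms4a6d were called higher in NB_Control, and 0 of the 5 members were called lower. That is 2 of 5 called, and over all genes 29.7% were called in this comparison, 15.8% of them higher and 13.9% lower as shares of the genes tested. At an unadjusted p under 0.05, 4 of the 5 members passed, as did 7657 of all 19555 genes. The median log2 difference of the 5 members was 0.8, and that of all genes was 0.09.

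Ms4a6d, whose protein has been described on macrophages with the complement receptor VSIG4, showed the clearest separation of culture from sorted cells. Its level was 12.72, 12.91 and 13.14 on the 3 NB_FACS arrays, 15.35, 15.38 and 15.35 on the NB_Control arrays, and 14.21, 14.08 and 14.64 on the NB_Stim arrays. On the A_FACS arrays it was 12.72 and 12.66. The sorted cells of both ages lay together at the bottom, NB_Control was highest with almost no spread, and NB_Stim lay between without touching either. The level rose from 12.92 ± 0.21 (SD, n = 3) in NB_FACS to 15.36 ± 0.015 (SD, n = 3) in NB_Control, a log2 difference of 2.44 (SE 0.17, limma adjusted p 7.2e-06), or 5.41-fold. The difference was 2.55 within slide 1 and 2.21 within slide 2, and it stayed between 2.34 and 2.54 under all 22 alternative settings and left-out arrays.

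Ms4a6c, a gene that has also been described in the chemosensory necklace neurons of the nose, was read by 3 probes. The mean of its probes was 9.04, 9.55 and 9.75 on the NB_FACS arrays, 11.2, 11.41 and 10.8 on the NB_Control arrays, and 10.5, 10.31 and 10.53 on the NB_Stim arrays. The A_FACS arrays gave 7.81 and 8.14. The 4 groups did not overlap, and they ran from A_FACS through NB_FACS and NB_Stim to NB_Control. Between NB_FACS and NB_Control the log2 difference was 1.69 (SE 0.22, limma adjusted p 0.000307), or 3.23-fold, and it was 2.01 within slide 1 and 1.05 within slide 2. Fitted alone, the 3 probes gave 1.37 to 1.89, and all 3 were called in that fit over probes.

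Ms4a6b is close to Ms4a6c in sequence, and its difference had the same direction but did not pass. Its level was 7.52, 7.62 and 7.3 on the NB_FACS arrays, 8.63, 8.75 and 7.47 on the NB_Control arrays, 7.24, 7.23 and 7.16 on the NB_Stim arrays, and 6.94 and 6.98 on the A_FACS arrays. NB_Control replicate 3 lay inside the NB_FACS range, and NB_Control replicates 1 and 2 lay above every other array. The log2 difference of 0.8 (SE 0.29) between NB_Control and NB_FACS had a limma adjusted p of 0.0631. With the replicate number as a block the same difference had an adjusted p of 0.0262 and was called. Without NB_Control replicate 3 the difference was 1.21 (limma adjusted p 0.000366), and within slide 2 it was 0.17 against 1.12 within slide 1. Because the Ms4a6b probe shares a run with a Ms4a6c probe, binding of Ms4a6c RNA to it was not tested. Over the 11 arrays the Ms4a6b probe had Pearson's r of 0.68 with the Ms4a6c probe that holds the run, and 0.69 and 0.63 with the Ms4a6c probes that do not. Because all 3 Ms4a6c probes read the same gene, these values cannot decide whether the Ms4a6b probe bound Ms4a6c RNA.

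**Figure D1:**
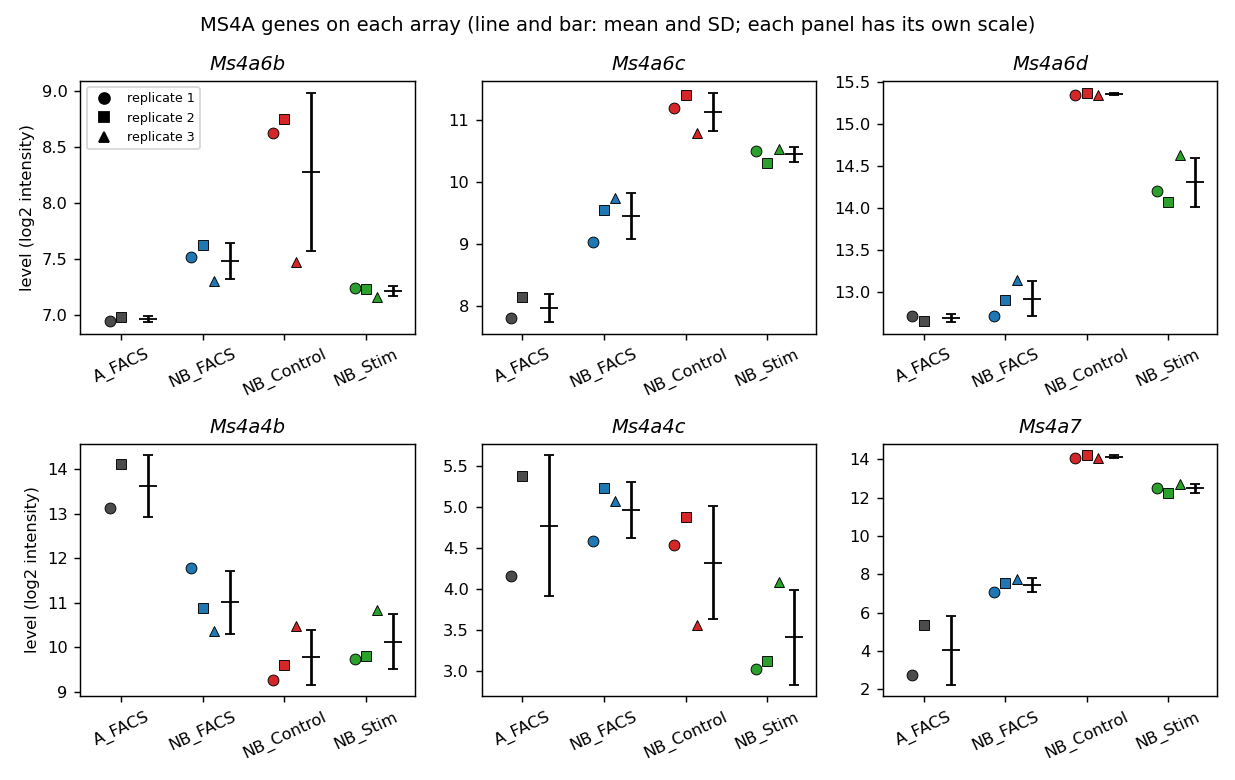
Level of the 5 measured MS4A members and of Ms4a7 on each of the 11 arrays (y axis, quantile normalised log2 intensity; x axis, group), with the shape marking the replicate and the bar the mean ± SD of the group. Ms4a6c, Ms4a6d and Ms4a7 are highest on the NB_Control arrays, for Ms4a6d at 15.35 to 15.38, and Ms4a4b is highest on the A_FACS arrays at 13.13 and 14.11.

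The second comparison asked what the 3 cytokines changed in culture. Ms4a6d fell by 1.05 on the log2 scale between NB_Control and NB_Stim (SE 0.17, limma adjusted p 0.00887), a 2.07-fold lower level. It was the only member of the 5 that was called, with 0 called higher, where 3.41% of all genes were called, 1.4% higher and 2% lower. At an unadjusted p under 0.05, 3 of the 5 members passed, as did 2969 of all 19555 genes. The median of the 5 was -0.92 against 0 over all genes. The Ms4a6d difference was -1.22 within slide 1 and -0.71 within slide 2. With Tukey's test, its p-values adjusted over all genes, the call was lost (adjusted p 0.0845). Before that adjustment 2 of the 5 members passed Tukey's test, as did 1590 of all 19555 genes. The Ms4a6d call was also lost when cultured replicates 1 and 2 were averaged (-0.96, limma adjusted p 0.159).

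Both other Ms4a6 genes had lower means in NB_Stim than in NB_Control, without a call in the fit over 4 groups. Ms4a6b had a log2 difference of -1.07 (SE 0.29, limma adjusted p 0.0847). With the replicate block it was called (limma adjusted p 0.035), which made 2 of 5 members called, and without NB_Control replicate 3 it was -1.48 (limma adjusted p 0.00107). Ms4a6b within slide 2 differed by -0.31 against -1.45 within slide 1. Ms4a6c differed by -0.69 (95% confidence interval -1.18 to -0.2, limma adjusted p 0.148). Its brightest probe, MMXS12383, had the largest of its 3 differences at -0.83 (limma adjusted p 0.0379 in the fit over probes), and the other probes gave -0.51 and -0.73. In the gene fit that kept only the brightest probe of each gene, the adjusted p of Ms4a6c was 0.0258, which also made 2 of 5 called.

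Set against the sorted newborn cells, the cytokine-treated cultures had higher Ms4a6d and Ms4a6c. NB_Stim was higher than NB_FACS by 1.39 for Ms4a6d (SE 0.17, limma adjusted p 0.000209) and by 1 for Ms4a6c (SE 0.22, limma adjusted p 0.00622). Ms4a6b did not pass, at -0.27 with a 95% confidence interval of -0.92 to 0.37. The third call was Ms4a4c, at -1.55, whose probes were well above background on only 1 of 3 NB_Stim arrays. These 3 calls of 5 stood beside 31.1% called over all genes, 16% higher and 15.1% lower, and the median of the 5 members was -0.27 against 0.11 over all genes. This comparison shares the NB_Stim arrays with the one before it and the NB_FACS arrays with the first. With Tukey's adjusted test only Ms4a6d was called, beside 3620 of all 19555 genes.

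**Figure D2:**
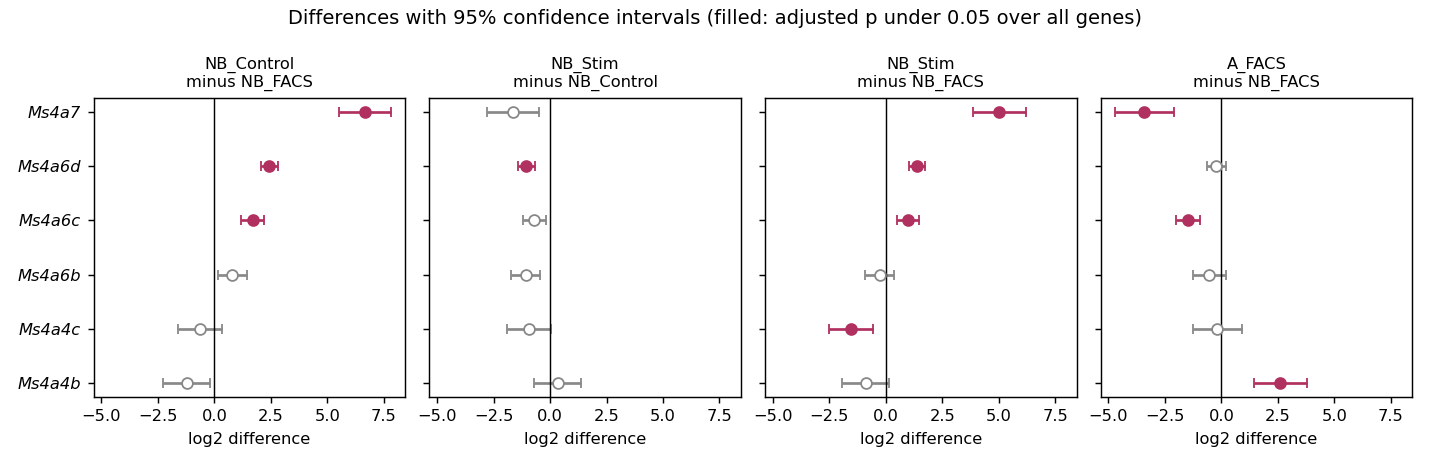
Log2 differences (x axis) of the 5 members and Ms4a7 in 4 comparisons, with 95% confidence intervals from the limma fit; filled points passed an adjusted p under 0.05 over 19555 genes. Ms4a6d was 2.44 higher in NB_Control than in NB_FACS, at -1.05 with cytokines, and close to 0 between A_FACS and NB_FACS.

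Between adult and newborn sorted cells Ms4a6c was called and Ms4a6d was not. Ms4a6c was lower in A_FACS than in NB_FACS (log2 difference -1.47, SE 0.24, limma adjusted p 0.00234), a 2.78-fold difference in which the arrays did not overlap. For Ms4a6d the log2 difference was -0.23 with a 95% confidence interval of -0.65 to 0.19 (limma adjusted p 0.427), and the arrays overlapped. The difference between these genes was not tested. Ms4a6b gave -0.53 (limma adjusted p 0.283), and it passed without NB_Control replicate 3 (-0.53, adjusted p 0.0263). That array is in neither group, so the difference was unchanged and only its test in the shared fit moved. The size for Ms4a6c depended on the probe: it was -0.75 for MMXS12383, -0.93 for MMXS18934 and -2.73 for MMXS57316, all 3 called in the fit over probes (limma adjusted p 0.0225, 0.032 and 0.00102). Of the 5 members 1 was called lower and 1, Ms4a4b, higher, where 22.7% of all genes were called, 9.75% higher and 12.9% lower. The adult group rests on 2 arrays.

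Ms4a6c and Ms4a6d were lower in adult sorted cells than in both cultures, and Ms4a6b was called lower only against NB_Control. Against NB_Control the log2 differences were -1.33 for Ms4a6b (SE 0.32, limma adjusted p 0.00852), -3.16 for Ms4a6c and -2.67 for Ms4a6d, so that 3 members were lower and Ms4a4b was higher, where 40.8% of all genes were called, 17.7% higher and 23.2% lower. Ms4a6b lost its call with Tukey's test (adjusted p 0.0931) and without A_FACS replicate 1 (-1.31, limma adjusted p 0.0546). Against NB_Stim the log2 differences were -2.48 for Ms4a6c and -1.62 for Ms4a6d (limma adjusted p 5.7e-05 and 0.000143), and Ms4a6b gave -0.25 with a 95% confidence interval of -0.97 to 0.47. In that comparison 2 members were lower and 2, Ms4a4b and Ms4a4c, higher. The Ms4a4b probe holds a GT repeat and Ms4a4c was dim, as described below. Over all genes 40.2% were called in that comparison, 17.5% higher and 22.8% lower. These comparisons reuse the arrays of the earlier ones and differ in age, sex, isolation and culture at once.

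**Figure D3:**
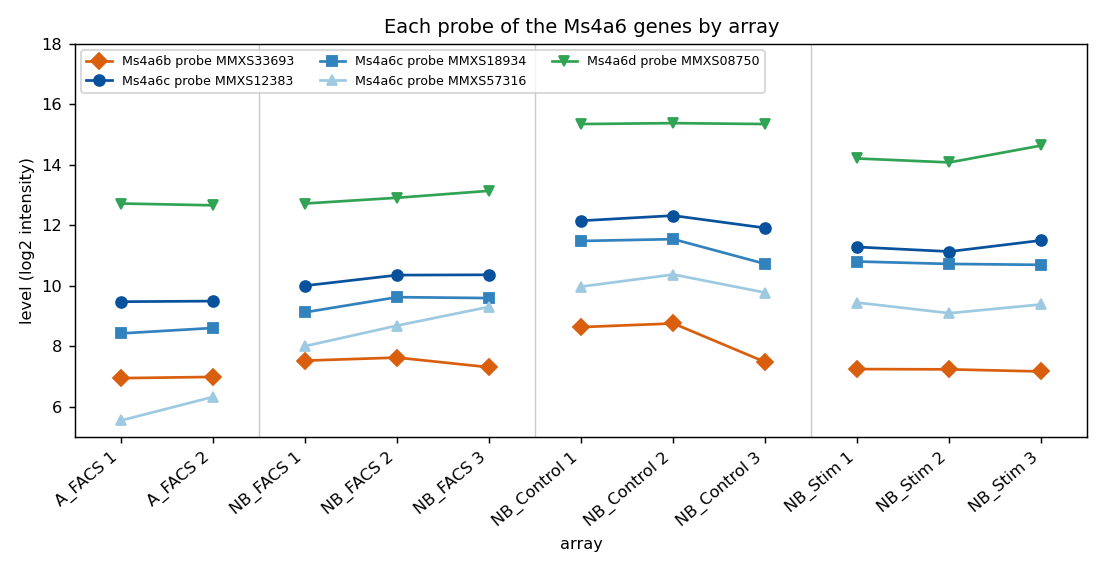
Level of each probe of Ms4a6b, Ms4a6c and Ms4a6d (y axis, quantile normalised log2 intensity) on each array (x axis), with lines joining arrays of 1 group only to guide the eye. All 3 Ms4a6c probes are highest in NB_Control, and probe MMXS57316 spans more between A_FACS (5.54 and 6.32) and NB_FACS (8 to 9.3) than the other 2; heights of different probes are not comparable.

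The start regions of Ms4a6b and Ms4a6c are shown because these neighbouring genes are alike there as well as in their probes. Of the 6 members, 5 had a RefSeq start window of 300 bases (GRCm38.p6), and Ms4a6d is named only. Ms4a6b is on chr19:11518309-11518608, plus strand, and Ms4a6c on chr19:11469118-11469417, plus strand. They share an uninterrupted run of 48 bases, in capitals, at positions 133 to 180 of the first and 202 to 249 of the second, counted from 1 at the 5′ end of the window. Among all other pairs of the 8 windows of these members, Ms4a4d and Ms4a7, the longest shared run was 20 bases, between Ms4a4b and Ms4a4c.
Ms4a6b: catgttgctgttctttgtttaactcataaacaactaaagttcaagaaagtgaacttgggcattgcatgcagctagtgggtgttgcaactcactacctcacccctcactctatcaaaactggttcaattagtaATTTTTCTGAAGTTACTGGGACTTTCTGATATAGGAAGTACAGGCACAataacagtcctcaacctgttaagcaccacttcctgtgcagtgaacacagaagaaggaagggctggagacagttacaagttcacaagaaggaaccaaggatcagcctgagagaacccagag
Ms4a6c: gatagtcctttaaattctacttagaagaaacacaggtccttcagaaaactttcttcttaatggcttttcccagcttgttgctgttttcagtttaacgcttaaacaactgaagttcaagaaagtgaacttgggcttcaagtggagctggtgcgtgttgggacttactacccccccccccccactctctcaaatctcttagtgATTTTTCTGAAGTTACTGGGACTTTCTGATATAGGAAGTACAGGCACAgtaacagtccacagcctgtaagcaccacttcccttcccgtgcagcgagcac
In the 8 windows, searched on both strands, an ETS type motif (GAGGAA) was found in those of Ms4a4b, Ms4a4c and Ms4a7, where 28.3% of 32851 windows hold it. The SMAD motif CAGACA was found in 1 of the 8, that of Ms4a7 (21% of all windows), and a C/EBP type motif (TTGCNNAA) in 1, that of Ms4a4d (10.8%). Matches of different motifs overlapped in 0 places, and a match is a description of the letters only. Windows without a match, among them those of Ms4a6b and Ms4a6c, were not searched for other forms of these motifs.

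Ms4a4b, which in T cells has been described as a partner of the receptor GITR, stood apart from the Ms4a6 genes: its signal was highest in adult sorted cells. It was 13.13 and 14.11 on the A_FACS arrays, 11.77, 10.88 and 10.37 on the NB_FACS arrays, 9.27, 9.6 and 10.47 on the NB_Control arrays, and 9.74, 9.8 and 10.83 on the NB_Stim arrays. Both A_FACS arrays lay above all 9 newborn arrays, and the 3 newborn groups overlapped. A_FACS was higher than NB_FACS by 2.61 (SE 0.52, limma adjusted p 0.00609), or 6.11-fold. It was higher than NB_Control by 3.84 and than NB_Stim by 3.49 (limma adjusted p 0.000323 and 0.000614). None of the 3 comparisons among newborn groups was called. The log2 difference between NB_Control and NB_FACS was -1.23 (limma adjusted p 0.0761), and it passed without NB_Control replicate 3 (-1.58, adjusted p 0.04) or NB_FACS replicate 3 (-1.55, adjusted p 0.041). For this gene the 95% confidence interval of the cytokine difference ran from -0.7 to 1.39. Without A_FACS replicate 2 the difference from NB_FACS was 2.12 (limma adjusted p 0.0561), and with Tukey's test its adjusted p was 0.0927.

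The Ms4a4b signal ran with that of other probes that hold a GT repeat. The 3 tested genes most like it over the 11 arrays, Gm6567, Stk35os1 and Slc7a2, each had Pearson's r of 0.993 and each was read by a probe with a GT repeat, in capitals below.
Gm6567: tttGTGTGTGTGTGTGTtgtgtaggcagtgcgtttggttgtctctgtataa
Stk35os1: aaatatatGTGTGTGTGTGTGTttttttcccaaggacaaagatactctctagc
Slc7a2: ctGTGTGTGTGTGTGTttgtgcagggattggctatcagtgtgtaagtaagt
This relation was looked for after the values of Ms4a4b had been seen. Leaving out the probes of Ms4a4b and Ms4a4d, 83 probes passed the filter and held at least 6 uninterrupted GT units. Their median r with the Ms4a4b probe was 0.96, against -0.09 for the 43451 probes with at most 2 units. In A_FACS these 83 probes were higher than in NB_FACS by a median of 2.52, where the Ms4a4b probe gave 2.61, and 100% of them were higher. The median difference grew with the length of the repeat, from 0.17 over 944 probes with 3 units to 0.63 over 170 probes with 4 and 2.02 over 77 probes with 5, and it was 0.02 with at most 2 units. In A_FACS against NB_Control the median of the 83 probes was 3.36, and against NB_Stim it was 3.23. Against NB_FACS their median was -0.83 in NB_Control (6.02% higher) and -0.72 in NB_Stim (4.82% higher). The Ms4a4b probe gave -1.23 and -0.88 in these comparisons. Whether Ms4a4b RNA itself differed was not tested, because no other probe read it.

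**Figure D4:**
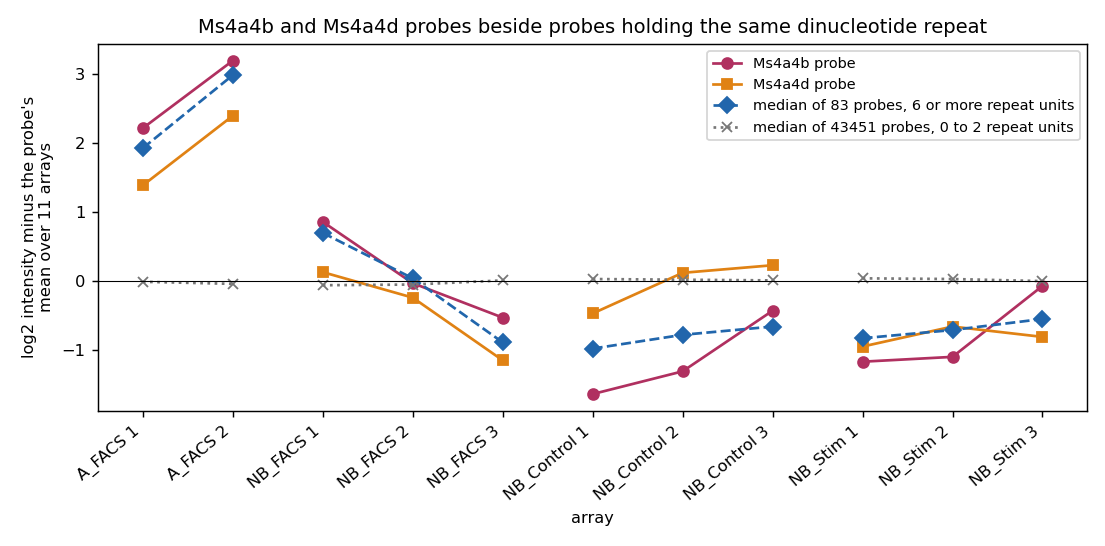
Signal of the Ms4a4b probe, the Ms4a4d probe, the median of 83 probes with at least 6 GT repeat units and the median of 43451 probes with at most 2 (y axis, log2 intensity minus the mean of the probe over 11 arrays) on each array (x axis). The Ms4a4b probe (2.22 and 3.2 on the A_FACS arrays) runs beside the repeat probes (1.93 and 2.99), and the probes with at most 2 units stay between -0.06 and 0.04.

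Ms4a4c was dim, and its differences were the least firm. Its level was 4.16 and 5.38 on the A_FACS arrays, 4.58, 5.23 and 5.07 on the NB_FACS arrays, 4.53, 4.88 and 3.56 on the NB_Control arrays, and 3.02, 3.12 and 4.08 on the NB_Stim arrays. Each of its 2 probes that passed the filter was well above background on 3 of 3 NB_FACS arrays but on only 1 of 3 NB_Stim arrays, and its other probe, MMXS12229, was above background on 0 of the 11 arrays. Probe MMXS28344 passed the filter through NB_FACS alone, so its part in a difference from NB_FACS is no independent result, whereas MMXS48890 also passed through A_FACS and NB_Control. The measured NB_Stim values lay below those of NB_FACS without overlap, by a log2 difference of -1.55 (SE 0.43, limma adjusted p 0.0219), to be read with most NB_Stim values near background. For MMXS48890 alone the difference was -1.3 (adjusted p 0.0472 in the fit over probes). The size depended on the background correction: with normexp it was -0.36 and was still called. This call was lost in 6 of 21 alternatives, among them leaving out NB_FACS replicate 2 (-1.41, limma adjusted p 0.0779), NB_FACS replicate 3 (-1.49), NB_Stim replicate 1 (-1.35) or NB_Stim replicate 2 (-1.41), and Tukey's test (adjusted p 0.21). A_FACS was higher than NB_Stim by 1.36 (limma adjusted p 0.0483), a call that was lost in 14 of 21 alternatives, and the difference was 0.75 without A_FACS replicate 2 (limma adjusted p 0.336) and 0.32 with normexp (adjusted p 0.0907). Between NB_Control and NB_FACS it was -0.63 with a 95% confidence interval of -1.61 to 0.34.

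The further genes of the family were mostly not called. Of 17 named, 16 had a matched probe and 13 passed the filter. In NB_Control against NB_FACS, 1 of 13 was higher and 0 lower (median 0.26, all genes 0.09), where 29.7% of all genes were called. In NB_Stim against NB_Control 0 of 13 were called by limma (2 at an unadjusted p under 0.05, 0 by Tukey's adjusted test, median 0.01), where 3.41% of all genes were called. Over all 19555 genes 2969 had an unadjusted p under 0.05 there. In NB_Stim against NB_FACS 2 were higher and 0 lower, beside 31.1% of all genes called. These were Ms4a7 in both comparisons with NB_FACS and Tmem176a in the last.

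Ms4a7, known as a marker of macrophages at the brain borders and of macrophages that enter the brain, had the largest of the differences between NB_Control and NB_FACS among the family genes tested. It was 7.06, 7.54 and 7.78 on the NB_FACS arrays, 14.07, 14.22 and 14.09 on the NB_Control arrays, 12.5, 12.26 and 12.72 on the NB_Stim arrays, and 2.74 and 5.35 on the A_FACS arrays. The 4 groups did not overlap, in the order that Ms4a6c had. NB_Control was higher than NB_FACS by 6.66 (SE 0.52, limma adjusted p 1.44e-05), or 101-fold, and its 2 probes gave 6.63 and 6.7. NB_Stim stayed 5.03 above NB_FACS (limma adjusted p 7.99e-05). The difference of -1.63 between NB_Stim and NB_Control had a limma adjusted p of 0.149 and passed in 5 of 22 alternatives, among them normexp background correction (-1.61, adjusted p 0.000917) and the fit of the 2 groups alone (adjusted p 0.00797). It was lower in A_FACS than in NB_FACS (log2 difference -3.42, limma adjusted p 0.00269), a call that was lost with Tukey's test (adjusted p 0.0546). Its size is uncertain, because probe MMXS47842 was well above background on only 1 of the 2 A_FACS arrays. Probe MMXS03647, above background on both, gave -2.84 (adjusted p 0.00172 in the fit over probes). The gene's difference was -2.11 without A_FACS replicate 1, -4.72 without A_FACS replicate 2 and -1.56 with normexp. Over the 11 arrays, which share these 4 groups, Ms4a7 had Pearson's r of 0.97 with Ms4a6c and 0.94 with Ms4a6d.

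Tmem176a, a related membrane protein gene, was higher in NB_Stim than in NB_FACS by 2.15 (SE 0.67, limma adjusted p 0.0342), a call that was lost without any 1 of the NB_FACS or NB_Stim arrays, with Tukey's test (adjusted p 0.292) and with cultured replicates 1 and 2 averaged (limma adjusted p 0.0799). NB_Control replicate 3 stood apart at 11.2, where the other NB_Control arrays gave 14.18 and 14.24. Without that array the difference between NB_Control and NB_FACS was 2.13 (limma adjusted p 0.00014), against 1.13 (adjusted p 0.25) with it. Ms4a4d was named after its values had been seen. It was higher in A_FACS than in NB_FACS by 2.32 (SE 0.4, limma adjusted p 0.00282), at 8.66 and 9.67 against 7.4, 7.03 and 6.12, but not with Tukey's test (adjusted p 0.052). Its probe had a median r of 0.9 with the 83 GT repeat probes.

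Of 8 receptors, signalling proteins and shedding proteases that work with MS4A proteins or with TREM2, 6 were tested. In NB_Control against NB_FACS 2 were higher and 1 lower: Tyrobp, the adaptor through which TREM2 signals, by 0.72 (limma adjusted p 0.0333), Fcer1g, the Fc receptor gamma chain, by 0.7 (adjusted p 0.0234), and Adam10, a protease that sheds receptors from the membrane, by -0.47 (adjusted p 0.0101). These 3 of 6 stood beside 29.7% of all genes called, 15.8% higher and 13.9% lower. By Tukey's adjusted test 1 of the 6 was called, beside 3547 of all 19555 genes. With cytokines Adam10 was higher than in NB_Control by 0.71 (limma adjusted p 0.00856), from 11.21, 11.2 and 11.3 to 11.98, 12.04 and 11.83, and it was the only one of the 6 called, where 3.41% of all genes were. Trem2 itself was called in none of these comparisons, at 0.43 (95% confidence interval -0.04 to 0.91, limma adjusted p 0.165) between NB_Control and NB_FACS and 0.13 (adjusted p 0.888) with cytokines. Syk and Adam17 were not called in any of the 3 newborn comparisons.

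Markers of microglia and of other cells moved with the same groups, and their part in the MS4A differences was not tested. In bulk RNA, fewer cells of a type and less RNA per cell cannot be told apart. Between NB_FACS and NB_Control, 7 of the 9 microglia markers fell and 0 rose (median -3.15), where Ms4a6c and Ms4a6d were higher. Over all genes 15.8% were higher and 13.9% lower in this comparison, and these shares stand beside each count below between these groups. With cytokines 4 of the 9 were higher and 0 lower (median 1.15), where Ms4a6d was lower. Over all genes 1.4% were higher and 2% lower with cytokines, and 2969 of 19555 had an unadjusted p under 0.05. The summed linear intensity of the microglia markers was 164000 to 188000 in NB_FACS, 37700 to 63700 in NB_Control, 139000 to 150000 in NB_Stim and 273000 to 297000 in A_FACS. The summed linear intensity of 10 border macrophage markers was 12700 to 15400 in NB_FACS, 30500 to 71000 in NB_Control, 13900 to 28500 in NB_Stim and 1470 to 1880 in A_FACS, and 7 to 10 of the 10 were well above background on each array. In NB_Control against NB_FACS 2 of these 10 were higher and 3 lower (median 0.4). Pf4, a chemokine, carried most of the rise of the sum, with a mean level of 10.42 in NB_FACS and 15.13 in NB_Control, whereas Lyve1 (7.82 and 3.02), Cd163 (6.76 and 3.68) and Cbr2 (9.09 and 5.94) were the 3 lower. With cytokines 0 of the 10 were higher and 1 lower (median -1.22). Of the monocyte markers 6 were tested, 3 higher and 1 lower in NB_Control than in NB_FACS, with sums of 724 to 913 in NB_FACS and 855 to 2310 in NB_Control. Of 6 T and NK cell markers 3 were higher in NB_Control, at sums of 2680 to 3260 against 439 to 470. Thy1, which is also found on other cells, carried the sum (mean level 5.29 in NB_FACS and 11.23 in NB_Control), and the other 5 differed by -0.13 to 0.7. Of 10 interferon-stimulated genes 7 were higher in NB_Control than in NB_FACS (median 1.94) and 0 were called by limma between NB_Stim and NB_Control (median -0.75, with 3 at an unadjusted p under 0.05 and 0 by Tukey's adjusted test). In A_FACS against NB_FACS 0 of the T and NK cell markers were called by limma (median 0.02, with 1 at an unadjusted p under 0.05 and 0 by Tukey's adjusted test). Over all genes 22.7% were called there, and 6867 of 19555 had an unadjusted p under 0.05. Of 6 fibroblast markers 4 were higher in NB_Control, at sums of 12200 to 16100 against 772 to 1050, and of 6 erythroid markers 3 were lower, at 374 to 435 against 25700 to 64100. Of 4 tested B cell markers 2 were lower in NB_Control than in NB_FACS, at sums of 2120 to 4020 against 4940 to 6040, with Cd79b at a mean level of 6.72 against 11.59. Of 5 astrocyte markers 2 were higher in NB_Control than in NB_FACS and 0 lower (median 0.97), at sums of 3090 to 3430 against 1920 to 2040. By Tukey's adjusted test, this comparison called 6 microglia, 2 border macrophage, 1 monocyte, 2 T and NK cell and 4 interferon-stimulated markers. It also called 4 fibroblast, 3 erythroid, 1 B cell and 1 astrocyte marker, where it called 3547 of all 19555 genes.

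The genes most like each other member over the 11 arrays, by Pearson's r, were Gamt (0.993), Pgpep1 and Dmac1 (both 0.986) for Ms4a6c, and Xylt2 (0.988), Txndc17 and Rnf128 (both 0.985) for Ms4a6d. For Ms4a6b they were Tnip3 (0.968), C1ra (0.95) and Ifitm1 (0.948), and for Ms4a4c they were Calhm6 (0.909), Gbp8 (0.897) and Mirt1 (0.896). These values describe patterns over the same 11 arrays. Among the members, Ms4a6c and Ms4a6d were alike at 0.91 and Ms4a6b was at 0.68 and 0.63 with them. The Ms4a4b probe ran against Ms4a6c at -0.92. That probe holds a GT repeat and had a median r of 0.96 with the 83 GT repeat probes. Whether the relation is one of Ms4a4b RNA was not tested.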

How the data were processed

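RNA was hybridised to single-colour Agilent arrays, and the authors deposited scanner files of Feature Extraction 11.5.1.1 that hold 1 background-subtracted signal intensity per spot. The deposited series values were the same intensities (0 of 62927 entries differed beyond a relative tolerance of 1e-05). A genome build for the arrays is not given in the sources used here.

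Here outlier spots were left out, spots averaged per probe (60037 probes), and log2 intensity quantile normalised, as in the study's methods, with limma 3.58.1 under R 4.3.3 (data.table package, version 1.17.8, matplotlib 3.10.9). Accessions were matched to RefSeq symbols for 36264 probes (60.4%). Kept probes exceeded background on all arrays of some group (44727, of which 28027 had a symbol), and they were averaged to 19555 genes. All 11 arrays were fitted with 1 mean per group (7 residual and 2.69 prior degrees of freedom) with limma's moderated test (two-sided), adjusted by Benjamini-Hochberg within each comparison. The fit was tested on simulated data. No spot was saturated (0 flagged), and the number of arrays limits the precision.

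The members, lists and tests were chosen with earlier results of these data known. All members were named. Of the further family genes, those called in a newborn comparison were named, partner genes could all be named, and the 3 genes most like each member were given. Of the other lists, those of neutrophil, mast cell and neuron markers are not described.

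Replicate numbers were checked on deviations from group means. In the newborn groups same-numbered arrays had correlations of 0.11 to 0.49 (9 pairs), all over 0.1, and other pairs had -0.45 to 0.36 (18 pairs). Number 3 also marks slide 2, and all negative correlations among newborn arrays were between slides. Within slide 1, other-numbered pairs had 0.19 to 0.36 and same-numbered pairs had 0.11 to 0.37. Pairing by number therefore cannot be told apart from slide, and the labels give only the numbers. With A_FACS the 6 same-numbered pairs gave -0.07 to 0.17. A fit with the number as a block was an alternative. Other alternatives were the scaling, background correction, filters, brightest probe, slide block, separate fits, Tukey's test (the methods' one-way analysis), the deposited values and each array left out. The p-values of Tukey's test were further adjusted by Benjamini-Hochberg over all genes, a step the study's methods do not name. Averaging close replicates, within-slide differences and single probes were added after seeing the data.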

Additional observations from a re-analysis of the deposited data

How the results depend on the processing

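Every alternative was run for the 5 members in each comparison, 22 in all, or 21 for Ms4a4c, which the stricter filter removed. The deposited values were the same intensities, so that alternative could not differ from the main fit. Leaving out an array of neither group compared cannot change a difference, only its test. The calls of Ms4a6c and Ms4a6d in NB_Control against NB_FACS kept their direction and passed in all 22. Ms4a6b was called there as well with normexp background correction, the slide block and the replicate block. The number of members called in NB_Control against NB_FACS was 2 and ranged from 2 to 4 without single arrays, the 4 being without NB_Control replicate 3. In NB_Stim against NB_Control it was 1, and it became 2 with normexp background correction, the brightest probe, the slide block and the replicate block, and 0 with Tukey's test and with cultured replicates 1 and 2 averaged; without single arrays it was 1 to 2. In NB_Stim against NB_FACS the number was 3 and fell to 1 with Tukey's test. Ms4a4c also lost its call there with cultured replicates 1 and 2 averaged, or without NB_FACS replicate 2 or 3 or NB_Stim replicate 1 or 2. In A_FACS against NB_FACS the number was 2, fell to 1 with Tukey's test, and was 1 to 3 without single arrays. It was 1 without A_FACS replicate 2 and 3 without NB_Control replicate 3, an array of neither group. Without single arrays 3 uncalled differences changed sign: Ms4a4b in NB_Stim against NB_Control (-0.01 to 0.69, lowest without NB_Stim replicate 3), and Ms4a4c in A_FACS against NB_FACS (-0.8 to 0.43) and against NB_Control (-0.16 to 1.06), where each A_FACS replicate set an end of the range. The number of all genes called in NB_Stim against NB_Control, 666, was 1009 with normexp, 1476 with the slide block, 1193 with the replicate block, 183 with Tukey's test and 118 with replicates averaged, and it was 304 to 337 without replicate 1 or 2 of either group. With Tukey's test it fell from 5811 to 3547 in NB_Control against NB_FACS, from 6082 to 3620 in NB_Stim against NB_FACS, from 4434 to 2014 in A_FACS against NB_FACS, from 7982 to 4881 in A_FACS against NB_Control and from 7869 to 4654 in A_FACS against NB_Stim. Without A_FACS replicate 1 the last 3 were 2456, 5188 and 4890, and the fit of the 2 groups alone gave 2923 for A_FACS against NB_FACS. The cause was not tested. The replicate block, which joins arrays of the same number, changed no other member's call than that of Ms4a6b in 2 comparisons.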
